A study of Rattus norvegicus with 18 samples.

Results

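This account sets RNA that came down with hnRNP H1 against RNA that came down with its close paralog hnRNP F. It covers 6 of the 18 libraries of the series: 3 hnRNP H1 RIP libraries and 3 hnRNP F RIP libraries, chosen by the antibody in their labels, with all 13416 transcript entries of the deposited table. RIP is RNA immunoprecipitation, in which an antibody pulls down a protein and the RNA held with it is sequenced. The axoplasm of all 6 came from the proximal sciatic nerve of SD rats, excised 7 days after a crush. The hnRNP K RIP, La/SSB RIP, FLAG RIP and Input libraries, 3 of each and from the same kind of nerve, served as references. The FLAG antibody is directed at a peptide tag that these rats were not labelled as carrying, and Input was RNA of the axoplasm with no antibody. The labels give no age and no count of animals per library, and do not say whether replicates came from separate animals, so p-values measure the spread between these samples, which may be technical.

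hnRNP H1 and hnRNP F belong to the hnRNP H/F family, nuclear RNA-binding proteins that also occur outside the nucleus. They contact RNA through quasi-RNA recognition motifs that prefer runs of guanine, and they are known for steering alternative splicing and the choice of polyadenylation site. hnRNP K, by contrast, is known for binding runs of cytosine, and La/SSB for binding the uridine tails of RNA polymerase III transcripts. In axons, RNA-binding proteins accompany mRNAs that are moved away from the cell body and translated locally, a process linked to regrowth after nerve injury.

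Among the entries that stood well above FLAG RIP in both paralogs were microRNA genes, short enough to show whole. The hairpins of the 3 most abundant ones are printed from RefSeq (GRCr8), 5′ to 3′, with runs of GGG in capitals because guanine runs are the letters this family prefers. Mir675 is read from the minus strand at chr1:207161752-207161835, Mir142 from the plus strand at chr10:73055104-73055190, and Mir568 from the minus strand at chr11:70559859-70559954.
Mir675 hairpin: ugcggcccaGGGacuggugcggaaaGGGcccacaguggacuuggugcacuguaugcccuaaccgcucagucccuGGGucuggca
Mir142 hairpin: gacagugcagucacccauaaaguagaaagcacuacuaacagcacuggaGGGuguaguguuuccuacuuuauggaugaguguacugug
Mir568 hairpin: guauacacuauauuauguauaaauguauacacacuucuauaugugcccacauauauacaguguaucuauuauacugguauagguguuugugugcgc
The letters GGG, searched on the transcribed strand, occurred in 3 separate runs in Mir675, in 1 run in Mir142 and in none in Mir568. They are common: 295 of the 419 rat hairpins in the RefSeq table held GGG (70.4%), and so did 146 of the 202 hairpins of 80 to 100 bases (72.3%). Of the 10 microRNA gene entries tested, 8 had a hairpin in that table and 7 of the 8 held GGG. A match is a description of the letters and not a binding site.

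The mature microRNAs of these 3 genes are given with the seed, bases 2 to 8, in capitals; the 5 seeds all differ.
rno-miR-675-5p: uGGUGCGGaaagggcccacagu
rno-miR-675-3p: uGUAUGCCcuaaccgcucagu
rno-miR-142-5p: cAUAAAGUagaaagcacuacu
rno-miR-142-3p: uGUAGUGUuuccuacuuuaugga
rno-miR-568: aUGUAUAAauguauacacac
Mir675, whose hairpin lies inside the long noncoding RNA H19, was counted over 84 bases. It had 4264, 8155 and 9726 CPM in hnRNP H1 RIP, 3413, 7302 and 14179 CPM in hnRNP F RIP, 78.9, 233 and 179.8 CPM in hnRNP K RIP, 257, 490.2 and 402 CPM in La/SSB RIP and 169, 273 and 188 CPM in FLAG RIP. CPM is the level in reads relative to all reads of the library, in the usual unit, scaled between libraries by TMM, the trimmed mean of M-values. All 6 hnRNP H1 and hnRNP F libraries stood above all 9 of the others, and the ranges of the paralogs overlapped. Reads over this entry may come from H19 or from the hairpin's precursor, which these counts cannot tell apart. Mir142, a microRNA gene of blood-forming cells, had 112, 65.8 and 114 CPM in hnRNP H1 RIP and 68.1, 80.7 and 206 CPM in hnRNP F RIP, against 0, 0.492 and 0.181 CPM in FLAG RIP. Mir568 had 249, 201 and 141 CPM in hnRNP H1 RIP and 179, 104 and 116 CPM in hnRNP F RIP, against 18.8, 36.2 and 3.19 CPM in FLAG RIP. No transcript of these 3 genes was called between the paralogs; the log2 fold changes of hnRNP H1 RIP over hnRNP F RIP were -0.17 ± 0.45 for Mir675, -0.28 ± 0.58 for Mir142 and 0.57 ± 0.56 for Mir568 (± SE throughout for fold changes).

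The libraries held 7467863 to 8882239 reads in hnRNP H1 RIP and 6390747 to 7267292 in hnRNP F RIP, so that 3 reads equal 0.338 to 0.402 CPM and 0.413 to 0.469 CPM. The other libraries held 4610750 to 16754262 reads, and no 2 libraries held identical counts. The transcripts of neurons that could mark axons (Gap43, Syn1 and the like) summed to 0.101% to 0.105% of reads in hnRNP H1 RIP and 0.097% to 0.144% in hnRNP F RIP. Markers of fibroblasts and perineurium summed to 8.46% to 12.5% in hnRNP H1 RIP and 7.05% to 10.4% in hnRNP F RIP, and those of macrophages and leukocytes to 1.57% to 2.33% and 1.52% to 3.38%. The material labelled axoplasm thus held RNA of several cell types; their part in the results below was not tested. In bulk RNA of this kind, fewer cells of a type and less RNA per cell cannot be told apart.

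Across transcripts, pairs of an hnRNP H1 and an hnRNP F library spanned the range of likeness found between replicates of hnRNP F RIP. Pearson's r of log2 CPM was 0.813 to 0.896 over the 9 pairs of an hnRNP H1 with an hnRNP F library (median 0.866), 0.882 to 0.928 within hnRNP H1 RIP and 0.841 to 0.862 within hnRNP F RIP. The r between hnRNP H1 and hnRNP K libraries was 0.710 to 0.769, and between hnRNP H1 and FLAG libraries 0.589 to 0.709. With La/SSB libraries it was 0.743 to 0.804 for hnRNP H1 and 0.726 to 0.825 for hnRNP F. The range of hnRNP F with La/SSB thus overlapped that of the paralog pairs. One library went against its label in this measure: hnRNP F RIP 1 correlated with the 3 hnRNP H1 libraries at 0.867, 0.896 and 0.895, above its r of 0.862 and 0.845 with hnRNP F RIP 2 and 3. Counts and list medians of the paralog comparison are given with and without it. These r values are taken across transcripts, which are not independent replicates. Replicates of a group spread around their mean with a median SD, on the log2 CPM scale, of 0.546 in hnRNP H1 RIP, 0.735 in hnRNP F RIP and 0.988 in FLAG RIP.

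**Figure D1:**
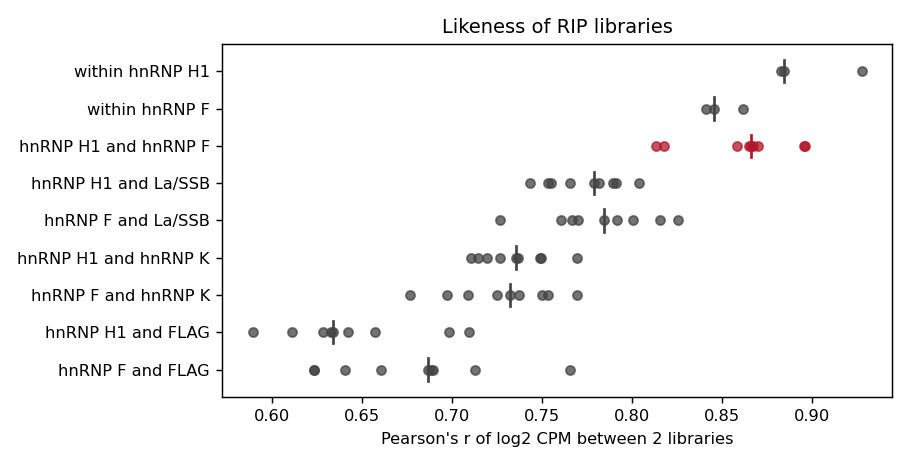
Pearson's r of log2 CPM for pairs of libraries; each point is 1 pair, the bar is the median of the row, and the row of hnRNP H1 with hnRNP F is in red. Its 9 pairs lie between 0.813 and 0.896, within reach of the replicate pairs and above the pairs with hnRNP K or FLAG libraries. The pairs of hnRNP F with La/SSB libraries reach 0.825 and overlap them.

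Which transcripts came down more with one paralog than with the other was the first question. At an adjusted p under 0.05, edgeR's quasi-likelihood test with Benjamini-Hochberg adjustment called 0 of 13276 transcripts tested (0%), higher or lower; the smallest adjusted p was 0.0943. Unadjusted p values under 0.05 stood at 1339 transcripts (10.1%), of which 526 were higher (3.96%) and 813 lower (6.12%) in hnRNP H1 RIP. All 3 hnRNP H1 libraries lay above all 3 hnRNP F libraries for 1118 transcripts (8.42%) and below them for 1136 (8.56%), 2254 in all (17%). The count depended on the tool and on its settings: DESeq2 called 81 transcripts, 19 higher and 62 lower. The edgeR test called 9 on the 12 specific RIP libraries without FLAG (2 higher and 7 lower), 9 with the replicate number as a block (1 higher and 8 lower), 4 with scaling by total counts only (1 higher and 3 lower) and 1 with only the 2 groups in the fit. Without hnRNP F RIP 1 the edgeR test again called 0 of 13366, with 1752 at an unadjusted p under 0.05 (13.1%), 747 higher and 1005 lower. A p that misses the threshold does not show that the paralogs hold the same RNA, so the widths of the intervals were read as well.

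The 95% interval of the fold change lay inside 2-fold in either direction for 784 transcripts (5.91%), inside 4-fold for 5822 (43.9%) and inside 8-fold for 10191 (76.8%). The count of 784 was 410 to 491 without any 1 of the hnRNP H1 libraries and 436 without hnRNP F RIP 1. Precision followed abundance. Of 1760 transcripts with a mean of at least 100 CPM over the 6 libraries, 537 were inside 2-fold (30.5%), and of the 150 with at least 1000 CPM, 66 were (44%). Only 1 of 4791 transcripts at 1 to 10 CPM was. The median half-width of the interval was 0.64 on the log2 scale at 1000 CPM and over, 1.25 at 10 to 100 CPM and 2.06 at 1 to 10 CPM, where most differences under 4-fold were thus not detectable at this depth and spread. The same fit called 3767 transcripts between hnRNP H1 RIP and hnRNP K RIP (28.4%) and 3826 between hnRNP F RIP and hnRNP K RIP (28.8%). Against La/SSB RIP it called 2155 for hnRNP H1 RIP (16.2%), of which 1331 were higher (10%) and 824 lower (6.21%). It called 1663 between hnRNP F RIP and La/SSB RIP (12.5%), of which 1214 were higher (9.14%) and 449 lower (3.38%). Scaling by total counts only turned the balance over La/SSB RIP, to 794 higher and 2513 lower for hnRNP H1 and 674 higher and 1853 lower for hnRNP F. The La/SSB counts were lower without La/SSB RIP 2 (1434 for hnRNP H1 and 1101 for hnRNP F) or La/SSB RIP 3 (1419 and 1101), and the hnRNP F count was 1097 without hnRNP F RIP 3. Those pairs and the paralog pair have the same number of libraries and a like median SE of the log2 fold change, 0.743 for hnRNP H1 over hnRNP F and 0.744 to 0.756 for the 4 others.

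**Figure D2:**
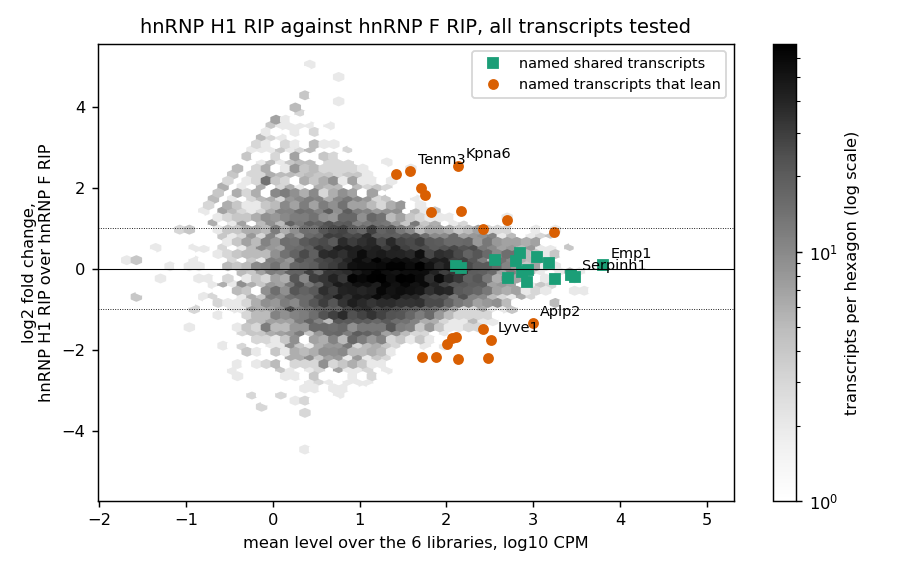
Log2 fold change of hnRNP H1 RIP over hnRNP F RIP (y axis) against the mean level over the 6 libraries in log10 CPM (x axis) for the transcripts tested; darker hexagons hold more transcripts, green squares are the named shared transcripts, orange circles the named transcripts that lean, and dotted lines mark 2-fold. The cloud narrows toward high levels, and Kpna6 at 2.55 and Lyve1 at -1.74 are marked among transcripts above 100 CPM.

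What the paralogs share was described first against the FLAG control. hnRNP H1 RIP differed from FLAG RIP at 5245 transcripts (39.5%), 2433 higher (18.3%) and 2812 lower (21.2%). hnRNP F RIP differed at 4473 (33.7%), 2204 higher (16.6%) and 2269 lower (17.1%). With scaling by total counts only, the calls were 2015 higher and 3581 lower for hnRNP H1, and 1738 higher and 2958 lower for hnRNP F. These comparisons share the FLAG libraries. Of the 1760 transcripts at 100 CPM or more, 318 were called against FLAG RIP for both paralogs and had an hnRNP H1 over hnRNP F interval inside 2-fold; 233 were higher than FLAG RIP in both and 85 lower.

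With different references, the lists of the paralogs still met. Of 2424 transcripts higher in hnRNP H1 RIP than in FLAG RIP, 1046 were also higher in hnRNP F RIP than in Input (43.2%, beside 11.7% of all transcripts tested). They were 67.3% of the 1554 in the second list, beside 18.3% of all transcripts. Of 2202 transcripts higher in hnRNP F RIP than in FLAG RIP, 1102 were higher in hnRNP H1 RIP than in Input (50%, beside 13.5%). They were 61.8% of the 1783 in the second list, beside 16.6%. hnRNP K gave a smaller meeting: 221 of the same 2424 were higher in hnRNP K RIP than in Input (9.12%, beside 6.58%). They were 25.3% of the 875 in that list, beside 18.3%. Of the 2202, 186 were (8.45%, beside 6.58%), which is 21.3% of the 875, beside 16.6%. Calls over Input numbered 3207 in hnRNP H1 RIP (24.1%; 13.4% higher and 10.7% lower) and 2514 in hnRNP F RIP (18.9%; 11.7% higher and 7.22% lower), with 1177 higher and 2615 lower for hnRNP H1 and 967 higher and 1934 lower for hnRNP F under scaling by total counts only; the hnRNP F number was 1675 without hnRNP F RIP 3. On the low side, 635 transcripts lower in hnRNP H1 RIP than in FLAG RIP were also lower in hnRNP F RIP than in Input. They were 22.6% of 2812, beside 7.22% of all transcripts tested, and 66.4% of 956, beside 21.2%. There, 385 of the 2812 were also lower in hnRNP K RIP than in Input (13.7%, beside 6.47%). They were 44.7% of the 861 in that list, beside 21.2%. Of 2269 transcripts lower in hnRNP F RIP than in FLAG RIP, 789 were lower in hnRNP H1 RIP than in Input (34.8%, beside 10.7%). They were 55.6% of 1420, beside 17.1%. Of the 2269, 227 were lower in hnRNP K RIP (10%, beside 6.47%), which is 26.4% of 861, beside 17.1%.

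Serpinh1, which encodes the collagen chaperone HSP47, led the shared transcripts. It had 2683, 2917 and 2875 CPM in hnRNP H1 RIP, 2795, 2462 and 4459 CPM in hnRNP F RIP, 581, 444 and 399 CPM in hnRNP K RIP, 113, 119 and 112 CPM in La/SSB RIP and 143, 55.0 and 109 CPM in FLAG RIP. Every library of both paralogs was above every library of the others. Over FLAG RIP the log2 fold change was 4.79 ± 0.36 for hnRNP H1 (adjusted p = 2.06e-07) and 4.98 ± 0.36 for hnRNP F (adjusted p = 1.62e-07). Between the paralogs it was -0.20 ± 0.31, with a 95% interval of -0.84 to 0.45. These were values of edgeR's quasi-likelihood test, as are all adjusted p-values below.

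Several of the shared transcripts encode proteins of the endoplasmic reticulum or the secretory path. Ccdc47, a component of the translocon that inserts multi-pass membrane proteins, had 1675, 1639.8 and 1542 CPM in hnRNP H1 RIP and 1466, 1607 and 2676 CPM in hnRNP F RIP, against 39.2, 30.1 and 33.6 CPM in hnRNP K RIP and 92.6, 85.8 and 142 CPM in FLAG RIP. It was the shared transcript farthest above hnRNP K RIP, by 5.56 ± 0.34 for hnRNP H1 and 5.80 ± 0.35 for hnRNP F on the log2 scale, with no overlap between libraries. Erlin2, which acts in degradation of endoplasmic reticulum proteins, had 718, 695 and 742 CPM in hnRNP H1 RIP and 675, 498 and 1119 CPM in hnRNP F RIP, against 47.9, 30.3 and 11.1 CPM in FLAG RIP. Man2a1, a mannosidase that trims N-glycans in the Golgi, had 738, 659 and 623 CPM in hnRNP H1 RIP and 724, 389 and 646 CPM in hnRNP F RIP, against 430.4 ± 74.8 CPM (SD, n = 3) in hnRNP K RIP and 28.4, 27.1 and 70.8 CPM in FLAG RIP. Man2a1 was above FLAG RIP in both paralogs and was not called against hnRNP K RIP in either (adjusted p = 0.172 and 0.354). Fam134c, a receptor for autophagy of the endoplasmic reticulum, and Kdelc2, a glucosyltransferase of the endoplasmic reticulum, were called above FLAG, hnRNP K and La/SSB RIP for both paralogs. The log2 fold changes of Fam134c over FLAG RIP were 4.42 ± 0.41 for hnRNP H1 and 4.2 ± 0.40 for hnRNP F, and those of Kdelc2 3.97 ± 0.37 and 3.66 ± 0.37.

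Others sit at the cell surface. Acvr1b, the activin type I receptor ALK4, had 476, 473 and 447 CPM in hnRNP H1 RIP and 459, 498 and 680.0 CPM in hnRNP F RIP, against 25.9, 10.8 and 27.2 CPM in FLAG RIP. Aqp1, the water channel aquaporin-1, had 2141, 1317 and 1311 CPM in hnRNP H1 RIP and 1694, 975 and 1613 CPM in hnRNP F RIP, against 120.5, 74.8 and 45.5 CPM in FLAG RIP. Both stood clear of FLAG RIP in all 6 libraries and overlapped between the paralogs. Emp1, an epithelial membrane protein of the PMP22 family, reached 6215, 6918 and 6784 CPM in hnRNP H1 RIP and 5420.4, 4500.3 and 8796 CPM in hnRNP F RIP, against 437, 223 and 442 CPM in FLAG RIP. Its interval between the paralogs was narrow, -0.52 to 0.70 on the log2 scale around 0.09. Ptprj, a receptor tyrosine phosphatase, had 855, 789.5 and 728 CPM in hnRNP H1 RIP and 624, 444 and 727 CPM in hnRNP F RIP, against 35.9, 48.2 and 42.6 CPM in FLAG RIP. It leaned most to hnRNP H1 among the 15 shared transcripts named, at 0.40 ± 0.26, and all 3 hnRNP H1 libraries were above all 3 hnRNP F libraries. Klrk1, the lymphocyte receptor NKG2D, was the least abundant of the 15, with 110.1, 131 and 151 CPM in hnRNP H1 RIP and 105, 103 and 168 CPM in hnRNP F RIP, against 4.71, 8.26 and 14.8 CPM in FLAG RIP.

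The remaining named shared transcripts have roles inside the cell. Dynll2, a light chain of dynein, the motor of retrograde axonal transport, had 2476, 2421 and 2771 CPM in hnRNP H1 RIP and 1774, 1954 and 4806 CPM in hnRNP F RIP, against 108, 116 and 102 CPM in hnRNP K RIP and 220.0, 124 and 163 CPM in FLAG RIP. Its hnRNP F RIP 3 value was the highest of the 15 RIP libraries, and the other hnRNP F libraries lay below all 3 hnRNP H1 libraries. Pon2, the paraoxonase of intracellular membranes, was 4.55 ± 0.40 above FLAG RIP with hnRNP H1 and 4.57 ± 0.40 with hnRNP F, and -0.02 ± 0.35 between the paralogs. Bfar, a regulator of apoptosis in the endoplasmic reticulum membrane, was 3.52 ± 0.33 above hnRNP K RIP with hnRNP H1 and 3.84 ± 0.33 with hnRNP F. Ppp2r3a, a regulatory subunit of protein phosphatase 2A, had 176, 128 and 141 CPM in hnRNP H1 RIP and 147, 113 and 181 CPM in hnRNP F RIP, against 8.35, 2.95 and 3.67 CPM in FLAG RIP. With any 1 of the 6 libraries left out, 8 to 12 of the 15 intervals reached past 2-fold, 12 of them without hnRNP F RIP 1. The calls of the 15 against FLAG RIP held in all 390 repeats under the alternatives tried. The 15 were chosen as the highest over FLAG RIP among transcripts called in both, so this supports nothing.

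**Figure D3:**
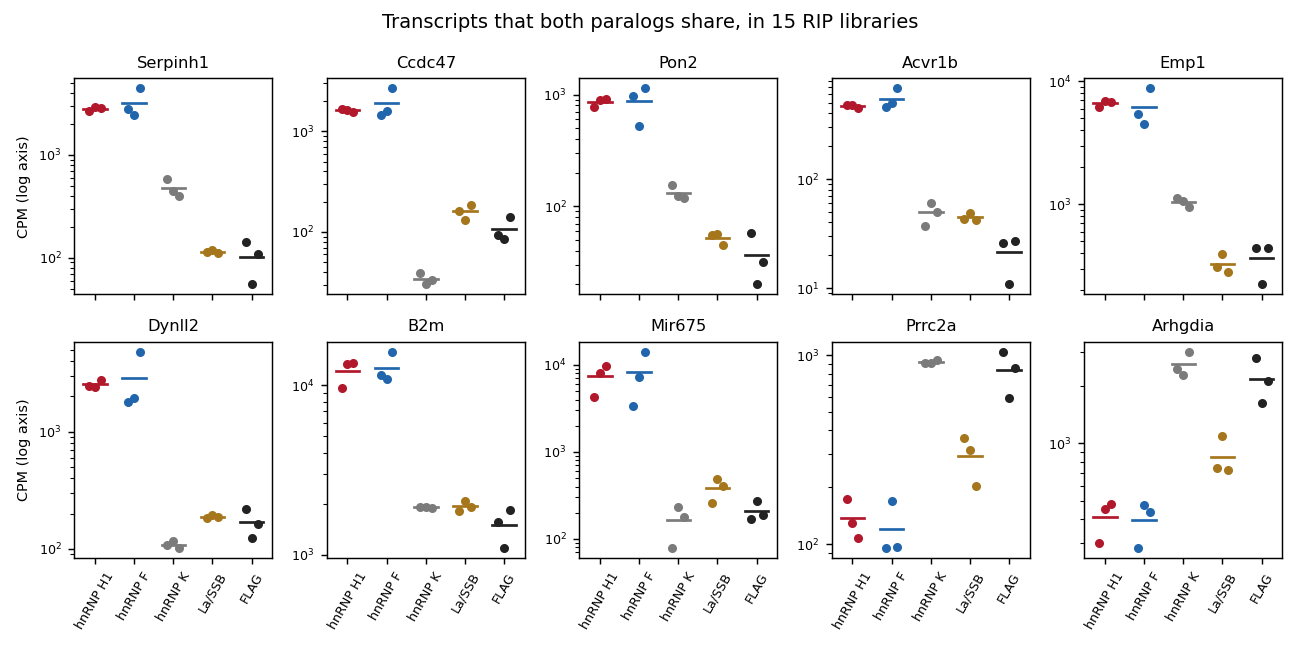
CPM of 10 transcripts in the 15 RIP libraries (log y axes; points are libraries, bars are means of 3). The first 8, among them Serpinh1 and Mir675, are high in both hnRNP H1 and hnRNP F RIP. Prrc2a and Arhgdia are low in both and high in hnRNP K and FLAG RIP.

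The paralogs also shared transcripts that they held less than FLAG RIP did; the 5 named here were chosen after their values were seen. Prrc2a, an RNA-binding protein, had 172, 129 and 108 CPM in hnRNP H1 RIP and 95.4, 169.8 and 96.7 CPM in hnRNP F RIP, against 909, 916 and 941 CPM in hnRNP K RIP and 1046, 598 and 861 CPM in FLAG RIP. Arhgdia, an inhibitor of small GTPases, had 298, 454 and 482 CPM in hnRNP H1 RIP and 283, 476 and 434 CPM in hnRNP F RIP, against 2468, 2294 and 3022 CPM in hnRNP K RIP and 2816, 1625 and 2116 CPM in FLAG RIP. Both transcripts were below every hnRNP K and FLAG library in all 6 paralog libraries. Creb3l1, a membrane-bound transcription factor of secretory cells, Dab2, a clathrin adaptor, and Wdfy3, a scaffold of selective autophagy, were also called lower than FLAG RIP for both. With hnRNP H1 their log2 fold changes over FLAG RIP were -2.74 ± 0.42, -2.31 ± 0.25 and -2.38 ± 0.32. With hnRNP F they were -2.68 ± 0.42, -1.91 ± 0.25 and -2.03 ± 0.31.

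The most abundant transcripts were common to both. Col1a1, the alpha chain of type I collagen, had 138149, 99118 and 86663 CPM in hnRNP H1 RIP and 99269.7, 60830.2 and 80921 CPM in hnRNP F RIP; both were called above FLAG RIP and below hnRNP K RIP. Gpnmb, a glycoprotein of phagocytes, had 16822, 17261 and 24143 CPM in hnRNP H1 RIP and 13950.4, 18587 and 40829.6 CPM in hnRNP F RIP, and B2m, the light chain of MHC class I, 9654, 13399.8 and 13423 CPM and 11514, 10823 and 15728 CPM. B2m had the narrowest interval of the 10 most abundant, -0.57 to 0.45 around a log2 fold change of -0.06. Sparc and Col8a1 (matrix proteins), Glul (glutamine synthetase), Slfn5 (an interferon-induced Schlafen protein) and Rrbp1 (a ribosome-binding protein of the endoplasmic reticulum) lay between -0.41 and 0.37. Zc3h13, a member of the m6A methylation complex, had 10530.3, 6794 and 8101 CPM in hnRNP H1 RIP, 8301, 16659.8 and 22458 CPM in hnRNP F RIP and 997, 568 and 414 CPM in FLAG RIP, a log2 fold change between the paralogs of -0.90 ± 0.36 (adjusted p = 0.432). hnRNP F RIP 1 lay inside the hnRNP H1 range for it and the other hnRNP F libraries above. Scd2, a fatty acid desaturase, had 9831, 11974 and 9257 CPM in hnRNP H1 RIP and 7185, 5801 and 7013 CPM in hnRNP F RIP, without overlap, at 0.64 ± 0.25 (adjusted p = 0.431).

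Gene lists, chosen with earlier results of these data known, were set side by side. Over all transcripts, 18.3% were called higher and 21.2% lower than FLAG RIP with hnRNP H1, and 16.6% and 17.1% with hnRNP F, and counts near these shares say nothing of a list. Solute carriers were called higher than FLAG RIP in 58 of 203 entries with hnRNP H1 and 57 with hnRNP F, and lower in 20 with each. Axon guidance genes were called higher in 18 of 42 with hnRNP H1 (none lower) and 16 with hnRNP F (3 lower). Ncam1, a neural adhesion molecule, had 53.4, 57.6 and 62.7 CPM in hnRNP H1 RIP and 56.6, 45.3 and 26.0 CPM in hnRNP F RIP, against 0.0663, 1.48 and 0.0602 CPM in FLAG RIP; Sema3g, a secreted semaphorin, had 46.8, 44.0 and 45.2 CPM and 24.9, 57.8 and 36.1 CPM, against 0, 0.295 and 0.0602 CPM. Collagens were called higher in 14 and lower in 3 of 37 with hnRNP H1, and higher in 16 and lower in 2 with hnRNP F. Between the paralogs, 6 of the 37 were lower in hnRNP H1 RIP and 1 higher at an unadjusted p under 0.05. These are 16.2% and 2.7%, beside 6.12% and 3.96% of all transcripts, with a median log2 fold change of -0.12. Without hnRNP F RIP 1, 6 collagens were lower and 0 higher (median -0.04), beside 1005 and 747 of all 13366 transcripts. Regeneration-associated genes were called higher in 12 and lower in 7 of 27 with hnRNP H1, and higher in 8 and lower in 4 with hnRNP F. Gap43, the growth-cone protein of regrowing axons, had 143, 109.5 and 113 CPM in hnRNP H1 RIP and 96.5, 147 and 207 CPM in hnRNP F RIP, against 24.3, 13.6 and 10.1 CPM in FLAG RIP, with both paralogs called higher.

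Messages of the hnRNP proteins themselves had like numbers of calls with both paralogs, which does not show that they were held alike: the interval between the paralogs lay inside 2-fold for 4 of the 32 entries. Of the 32, 12 were called higher and 2 lower than FLAG RIP with hnRNP H1, beside 18.3% and 21.2% of all transcripts. With hnRNP F, 12 were called higher and 3 lower, beside 16.6% and 17.1%. Against hnRNP K RIP the calls were 21 higher and 4 lower with hnRNP H1 (beside 15.1% and 13.3% of all transcripts), and 18 higher and 4 lower with hnRNP F (beside 16.3% and 12.6%). Hnrnpa2b1, a carrier of localized mRNAs, had 235, 193 and 284 CPM in hnRNP H1 RIP, 175, 359.9 and 454 CPM in hnRNP F RIP and 4.14, 15.1 and 6.49 CPM in hnRNP K RIP. Spliceosome messages were called higher than hnRNP K RIP in 19 of 41 entries and lower in 3, with each paralog. Between the paralogs, 6 of the 41 were lower in hnRNP H1 RIP and 0 higher at an unadjusted p under 0.05. That is 14.6% lower, beside 6.12% of all transcripts, and the median was -0.26. Without hnRNP F RIP 1, 9 were lower and 0 higher (median -0.34), beside 1005 and 747 of all 13366 transcripts.

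Most of the small RNA entries tested stood above FLAG RIP with each paralog. Small nucleolar and Cajal body RNAs, which guide modification of other RNAs, were called higher than FLAG RIP in 48 of 69 entries with hnRNP H1 (1 lower) and 43 with hnRNP F (none lower). Entries named U6 or 7SK were called higher in 46 of 57 with hnRNP H1 and 35 with hnRNP F, and microRNA genes in 10 of 10 and 8 of 10, none lower. SNORA21, whose reads map to its 136-base entry, had 58.2, 35.7 and 43.0 CPM in hnRNP H1 RIP and 33.2, 40.4 and 44.2 CPM in hnRNP F RIP, against 0.0663, 0.0984 and 0.0602 CPM in FLAG RIP. SCARNA17 had 147, 154 and 194 CPM in hnRNP H1 RIP and 168, 88.3 and 176 CPM in hnRNP F RIP, against 0.199, 10.9 and 8.61 CPM in FLAG RIP. Against La/SSB RIP the median log2 fold changes of the small nucleolar list were 0.19 for hnRNP H1 and -0.22 for hnRNP F. Many such genes lie in introns of longer genes and U6 and 7SK have many near-identical copies, so the source of these reads is uncertain. SNORA21 and SCARNA17 were chosen after their values were seen. Of all transcripts, 18.3% were called higher than FLAG RIP with hnRNP H1 and 16.6% with hnRNP F. Entries near 0 in FLAG RIP can pass the filter on low counts through the paralog libraries alone. The deposited table also holds only transcripts with at least 10 reads in La/SSB RIP 1. The counts of small RNAs over FLAG RIP thus describe the entries tested and support nothing.

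To lean, as used here, is to stand higher with one paralog without a call. Cytosolic ribosomal proteins, the protein parts of the ribosome, leaned to hnRNP F. No member was called by the edgeR test over the 15 RIP libraries. DESeq2 called 8 of the 79, and edgeR 5 with the replicate block, 1 on the 12 specific libraries and 1 with total counts only. Of 79 entries, 37 were lower and 0 higher in hnRNP H1 RIP at an unadjusted p under 0.05 (46.8%, beside 6.12% of all transcripts), and the median log2 fold change was -1.11, beside -0.07 over all transcripts tested. The 3 hnRNP H1 libraries lay below all 3 hnRNP F libraries for 27 of the 79 (34.2%, beside 8.56%). Without hnRNP F RIP 1 the median was -1.38 and 47 were lower, beside 1005 of all 13366 transcripts. Over the repeats that left out 1 of the 6 libraries the median ran from -1.38 to -0.85. The summed level of the list was 2164, 2959 and 3815 CPM in hnRNP H1 RIP, 4425, 7776 and 7979 CPM in hnRNP F RIP and 14286, 14033 and 18219 CPM in FLAG RIP, so both paralogs held less of it than FLAG RIP. These sums did not overlap between the paralogs, but the median log2 CPM of the list did. That median was 4.377 in hnRNP H1 RIP 3, above the 4.224 of hnRNP F RIP 1. In the other hnRNP F libraries it was above all 3 hnRNP H1 libraries. Against FLAG RIP, 61 of the 79 were called lower and 1 higher with hnRNP H1, beside 21.2% and 18.3% of all transcripts. With hnRNP F, 31 were called lower and 0 higher, beside 17.1% and 16.6%. Whether this list moves apart from other lists was not tested.

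Single ribosomal proteins show the pattern. Rpl5, which binds 5S rRNA, had 106, 139 and 171 CPM in hnRNP H1 RIP and 265, 410.1 and 485 CPM in hnRNP F RIP, against 733, 1214 and 1431 CPM in La/SSB RIP and 603, 589.8 and 617 CPM in FLAG RIP. Its 3 groups did not overlap among hnRNP H1, hnRNP F and FLAG RIP, and the log2 fold change between the paralogs was -1.48 ± 0.32 (adjusted p = 0.229). Rpl23 had 58.7, 147 and 221 CPM in hnRNP H1 RIP and 325, 618 and 661 CPM in hnRNP F RIP (-1.91 ± 0.46, adjusted p = 0.287). Rplp0, of the ribosomal stalk, showed less of a difference, with 249.8, 243 and 322 CPM in hnRNP H1 RIP and 300.4, 371 and 464 CPM in hnRNP F RIP (-0.48 ± 0.30, adjusted p = 0.614). Ribosomal protein pseudogenes are numerous in rats, so the split of reads among these entries is uncertain.

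Nuclear-encoded oxidative phosphorylation genes, the subunits of the respiratory chain and ATP synthase, had the same direction. Of 77 entries, 19 were lower and 0 higher in hnRNP H1 RIP at an unadjusted p under 0.05 (24.7%, beside 6.12% lower and 3.96% higher over all transcripts). The median was -0.83, or -1.01 without hnRNP F RIP 1. Atp5b, the catalytic beta subunit of ATP synthase, had 62.4, 50.1 and 60.6 CPM in hnRNP H1 RIP and 120.1, 119 and 97.6 CPM in hnRNP F RIP (-0.96 ± 0.34, adjusted p = 0.388). Cox7c, a small subunit of cytochrome oxidase, had 32.3, 48.1 and 55.6 CPM in hnRNP H1 RIP and 110.1, 120.5 and 188 CPM in hnRNP F RIP, against 203, 201 and 490.0 CPM in FLAG RIP. Against FLAG RIP 63 of the 77 were called lower with hnRNP H1 and 45 with hnRNP F, beside 21.2% and 17.1% of all transcripts. None was called higher with either, beside 18.3% and 16.6%. Proteasome subunits had a median of -0.66, with 4 of 42 lower and 1 higher, and translation factors with 5 prime TOP mRNAs one of -0.50, with 10 of 48 lower and 2 higher. These were, without hnRNP F RIP 1, -0.78, with 6 lower and 1 higher, and -0.46, with 15 lower and 1 higher. All 13366 transcripts tested without that library had 1005 lower and 747 higher.

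Transcripts of 300 to 999 bases leaned to hnRNP F as well, and shorter ones did not. Of the 338 transcripts up to 299 bases, 5.62% were lower in hnRNP H1 RIP at an unadjusted p under 0.05 and 9.47% higher, with a median of 0.07. Of 1546 transcripts of 300 to 999 bases, 13.3% were lower and 3.04% higher, with a median of -0.36. Of 2495 transcripts of 4000 bases and over, 3.37% were lower and 5.05% higher, with a median of 0.07. Among the 1484 transcripts of 300 to 999 bases other than ribosomal proteins, 11.9% were lower, with a median of -0.33, while the 62 ribosomal proteins of that length had a median of -1.15. The part of length or of RNA integrity in the ribosomal protein values was not tested.

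**Figure D4:**
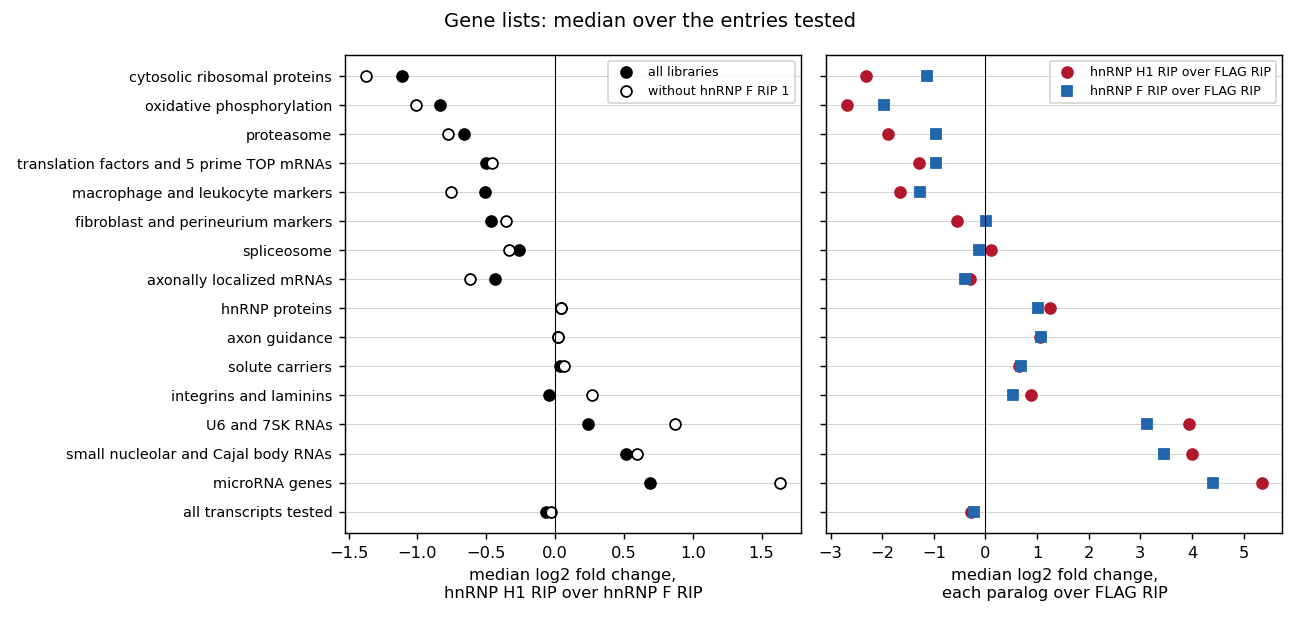
Median log2 fold change over the tested entries of 15 gene lists and of all transcripts: left, hnRNP H1 RIP over hnRNP F RIP with all libraries (filled) and without hnRNP F RIP 1 (open); right, hnRNP H1 RIP (red circles) and hnRNP F RIP (blue squares) over FLAG RIP. Ribosomal proteins lie at -1.11 and microRNA genes at 0.69 on the left, and both paralogs keep the same side of 0 for these lists on the right.

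The medians of 3 small RNA lists went the other way, over entries that can pass the filter through 1 group alone. At an unadjusted p under 0.05, 8 of 57 U6 and 7SK entries were higher in hnRNP H1 RIP and 0 lower (14.0%, beside 3.96% of all transcripts; median 0.24), 4 of 69 small nucleolar and Cajal body RNAs were higher and 1 lower (median 0.52), and 2 of 10 microRNA genes were higher and 0 lower (median 0.69). The 4 of 69 small nucleolar and Cajal body RNAs are 5.8%, near the 3.96% of all transcripts. Leaving out hnRNP F RIP 1, 13 U6 and 7SK entries were higher and 2 lower (median 0.87), 10 small nucleolar and Cajal body RNAs were higher and 2 lower (median 0.60), and 3 microRNA genes were higher and 0 lower (median 1.64). Of all 13366 transcripts tested without that library, 747 were higher and 1005 lower. The small RNA entries behind these counts were scarce. Mir199a2, the more frequent of them, had 9.91, 5.99 and 10.6 CPM in hnRNP H1 RIP and 4.09, 1.86 and 0 CPM in hnRNP F RIP (adjusted p = 0.486), and Mir103-2 had 1.37, 2.37 and 0.448 CPM and 0.164, 0.155 and 0 CPM. SNORA40 had 9.76, 3.37 and 0.597 CPM in hnRNP H1 RIP and 0.164, 0 and 0 CPM in hnRNP F RIP. The abundant small RNAs (Mir675, Mir142, SNORA21 and SCARNA17) had overlapping groups. Summed levels of the lists overlapped too. U6 and 7SK entries had 301.5 to 440.2 CPM in hnRNP H1 RIP and 248.8 to 480.8 CPM in hnRNP F RIP. Small nucleolar and Cajal body RNAs had 544.8 to 577 CPM and 398.7 to 565.8 CPM, and microRNA genes 4655 to 10020 CPM and 3691 to 14500 CPM. Of 80 small nucleolar and Cajal body, 64 U6 and 7SK and 12 microRNA entries in the table, 69, 57 and 10 passed the filter on low counts, which an entry can pass through the libraries of 1 group alone, so the counts describe the entries tested and support nothing.

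Single transcripts entered the next choice only if the 3 hnRNP H1 and 3 hnRNP F libraries did not overlap. That separation is thus no result. Among them, those with the smallest p in each direction above 20 CPM were chosen after their values were seen. None was called by the edgeR test over the 15 RIP libraries, while of the 20 so chosen DESeq2 called 16 and edgeR 9 on the 12 specific libraries, 6 with the replicate block, 4 with total counts only and 1 with only the 2 groups in the fit. Kpna6, the importin alpha-7 that binds nuclear localization signals and belongs to the importins studied in retrograde injury signalling, leaned most to hnRNP H1. It had 301, 238 and 159.8 CPM in hnRNP H1 RIP, 43.2, 25.7 and 50.4 CPM in hnRNP F RIP, 78.7, 82.4 and 63.2 CPM in hnRNP K RIP, 64.3, 54.4 and 45.1 CPM in La/SSB RIP and 114, 42.6 and 30.1 CPM in FLAG RIP. All 3 hnRNP H1 values were above all 12 others. The log2 fold change over hnRNP F RIP was 2.55 ± 0.47 (interval 1.57 to 3.52, adjusted p = 0.102, and 0.000291 to 0.531 over the alternatives). Over FLAG RIP, Kpna6 was called with hnRNP H1 (1.90 ± 0.45, adjusted p = 0.00305) and not with hnRNP F (-0.64 ± 0.44, adjusted p = 0.276). Kpnb1, importin beta, differed less, with 3452, 3788 and 3649.9 CPM in hnRNP H1 RIP and 3063, 1904 and 3539.6 CPM in hnRNP F RIP (0.36 ± 0.32).

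Tenm3, a teneurin of synaptic wiring, had 61.6, 67.9 and 64.9 CPM in hnRNP H1 RIP and 7.53, 11.8 and 16.8 CPM in hnRNP F RIP, against 20.6, 15 and 25.8 CPM in FLAG RIP. Ccny, a cyclin of the plasma membrane, had 215, 199 and 236 CPM in hnRNP H1 RIP and 90.6, 76.7 and 73.5 CPM in hnRNP F RIP, against 63.3, 80.5 and 103 CPM in FLAG RIP. The hnRNP F values of Tenm3 and Ccny overlapped those of FLAG RIP, and the hnRNP H1 values lay above. Dpysl2, which encodes the axon growth protein CRMP2, was abundant and above FLAG RIP in both, with 2354, 2339 and 2087 CPM in hnRNP H1 RIP and 1545, 919 and 1157 CPM in hnRNP F RIP, against 314, 325 and 396 CPM in FLAG RIP. Its log2 fold change between the paralogs was 0.90 ± 0.25 (adjusted p = 0.344). Desi2, a deSUMOylating isopeptidase, Dzip1, a basal body protein of Hedgehog signalling, and Stard13, a GTPase-activating protein, lay at 2.00 ± 0.52, 1.2 ± 0.34 and 1.40 ± 0.37. Ppp1r14c, an inhibitor of protein phosphatase 1, Lrrc58, a leucine-rich repeat protein, and Gas2l3, which links actin and microtubules, lay at 2.34 ± 0.58, 1.81 ± 0.50 and 0.99 ± 0.28.

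On the hnRNP F side, Lyve1, a hyaluronan receptor of lymphatic endothelium and of some macrophages, had 129.9, 161 and 154 CPM in hnRNP H1 RIP, 362, 512 and 618 CPM in hnRNP F RIP, 794, 470.4 and 566 CPM in hnRNP K RIP and 109, 49.2 and 99.9 CPM in FLAG RIP. The 3 hnRNP H1 values lay below all 3 hnRNP F values, which overlapped those of hnRNP K RIP, and the log2 fold change between the paralogs was -1.74 ± 0.33 (adjusted p = 0.102). Aplp2, a homologue of the amyloid precursor protein, had 498, 564 and 632 CPM in hnRNP H1 RIP and 1618, 1315 and 1339 CPM in hnRNP F RIP, against 144, 253 and 162 CPM in FLAG RIP. It was called above FLAG RIP for both, by 1.60 ± 0.26 with hnRNP H1 and 2.93 ± 0.28 with hnRNP F, and lay at -1.34 ± 0.26 between them (adjusted p = 0.113). Aprt, an enzyme of purine salvage, had 14.5, 17.7 and 24.8 CPM in hnRNP H1 RIP and 54.8, 121 and 83.2 CPM in hnRNP F RIP, against 249.5, 118 and 196 CPM in FLAG RIP. All its hnRNP H1 values lay below all FLAG RIP values, while the highest hnRNP F value, 121 CPM, was above the lowest FLAG RIP value, 118 CPM. Gltscr2, a nucleolar protein, Sarnp, an mRNA export factor, and Rpl5l1 lay at -1.68 ± 0.37, -1.86 ± 0.43 and -1.70 ± 0.34. With 1 library left out at a time, all 20 leaning transcripts kept their direction, which their choice without overlap between the paralogs had all but fixed. Without hnRNP F RIP 1 the log2 fold change was 2.61 for Kpna6, -1.93 for Lyve1 and -1.23 for Aplp2.

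**Figure D5:**
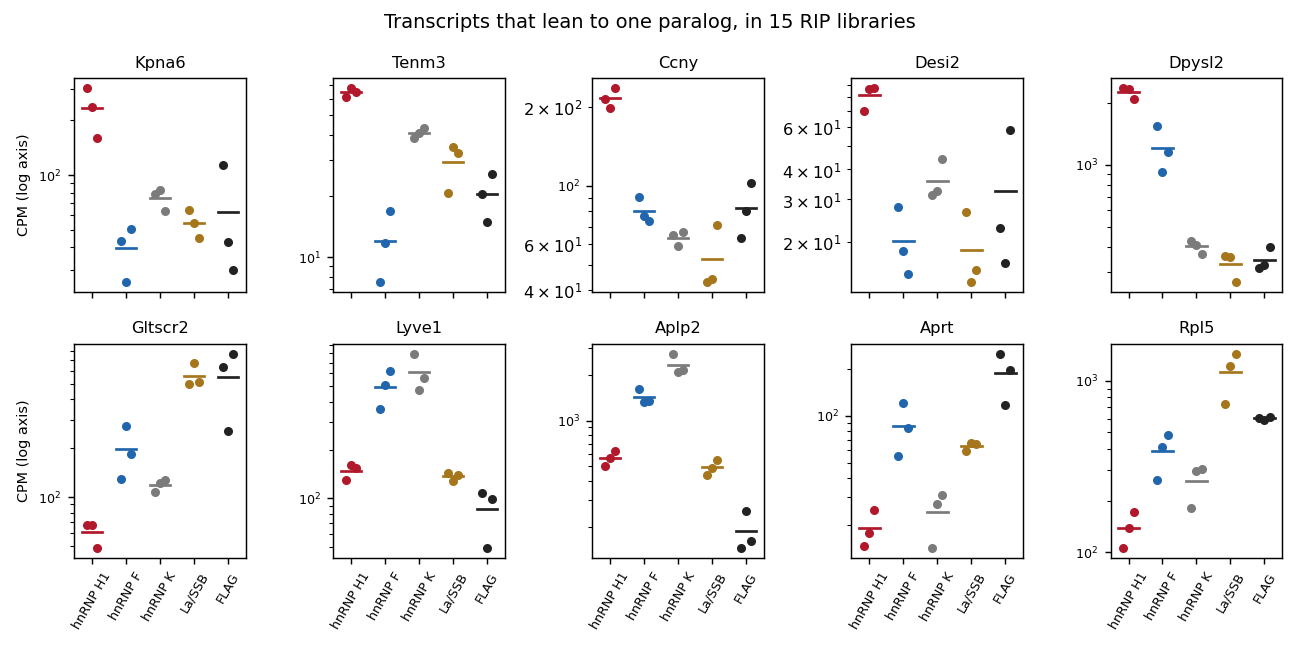
CPM of 10 transcripts that lean, in the 15 RIP libraries (log y axes; points are libraries, bars are means of 3). By the rule of choice, the 3 hnRNP H1 libraries lie above the 3 hnRNP F libraries in the first 5, from Kpna6 to Dpysl2. In the last 5, from Gltscr2 to Rpl5, they lie below.

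Some markers of other cells leaned to hnRNP F as well. At an unadjusted p under 0.05, 6 of 23 macrophage and leukocyte markers were lower in hnRNP H1 RIP and 1 higher (median -0.51), and so were 5 of 28 fibroblast and perineurium markers with none higher (median -0.46) and 3 of 11 adipocyte markers with none higher (median -1.13), beside 6.12% lower and 3.96% higher over all transcripts. Leaving out hnRNP F RIP 1, 7 macrophage and leukocyte markers were lower and 1 higher (median -0.76), 7 fibroblast and perineurium markers were lower and 2 higher (median -0.36), and 1 adipocyte marker was lower (median -0.61). Of all 13366 transcripts tested without that library, 747 were higher and 1005 lower. Lyz2, a lysozyme of macrophages, had 499, 645 and 705 CPM in hnRNP H1 RIP and 941, 1446 and 1653 CPM in hnRNP F RIP, and Mrc1, the macrophage mannose receptor, 91.0, 94.1 and 95.5 CPM and 157, 179 and 156 CPM. Cd68, another macrophage marker, overlapped between the paralogs. The summed macrophage level was 18360 to 25950 CPM in hnRNP H1 RIP and 15940 to 44340 CPM in hnRNP F RIP. The summed fibroblast and perineurium level was 94200 to 146000 CPM in hnRNP H1 RIP and 73940 to 108900 CPM in hnRNP F RIP, with the groups overlapping and the median of the list below 0. Of the entries of these 3 lists in the table, none was at 0 reads in all 6 libraries. Schwann cell markers had a median of 0.10, with 2 of 26 lower and 1 higher, and of 0.27 with 4 lower and 2 higher without hnRNP F RIP 1. Mbp, myelin basic protein, had 40.9, 43.0 and 40.7 CPM in hnRNP H1 RIP and 24.9, 11.3 and 18.6 CPM in hnRNP F RIP, without overlap. The summed Schwann cell level went the other way, also without overlap. It was 2342 to 2763 CPM in hnRNP H1 RIP and 2942 to 3623 CPM in hnRNP F RIP. The part of these cell types in the leaning transcripts was not tested.

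No message of the family or of the antibodies' targets was called between the paralogs, though Ssb leaned to hnRNP F. Hnrnph1 had 10.5, 14.0 and 14.2 CPM in hnRNP H1 RIP and 13.9, 7.27 and 5.05 CPM in hnRNP F RIP, against 22.1, 1.97 and 7.34 CPM in FLAG RIP. Hnrnpf had 2.90, 7.12 and 12.8 CPM in hnRNP H1 RIP and 9.82, 1.39 and 0.180 CPM in hnRNP F RIP, against 0, 2.46 and 3.67 CPM in FLAG RIP. An mRNA level says nothing of how well an antibody pulled down its protein. Hnrnph2, a further member of the family, was the most abundant, with 114, 188 and 227 CPM in hnRNP H1 RIP, 169, 170.3 and 212 CPM in hnRNP F RIP, 15.4, 16.9 and 15.8 CPM in hnRNP K RIP and 92.6, 70.2 and 139 CPM in FLAG RIP. It was called above hnRNP K RIP with both paralogs (3.45 ± 0.38 with hnRNP H1 and 3.52 ± 0.38 with hnRNP F) and lay within 2-fold between them (-0.79 to 0.67). Hnrnph3 had 8.84, 9.74 and 14.6 CPM in hnRNP H1 RIP and 11.1, 5.1 and 9.93 CPM in hnRNP F RIP. Ssb, the message of La/SSB, leaned to hnRNP F, with 31.3, 30.0 and 34.3 CPM in hnRNP H1 RIP and 57.9, 69.3 and 52.2 CPM in hnRNP F RIP (-0.91 ± 0.39, adjusted p = 0.451). Genes of this family have near-identical copies, so the split of reads among them is uncertain.

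RNAs known elsewhere as splicing or processing targets of hnRNP H/F were set beside these. Of 16 entries tested, none was called between the paralogs. With hnRNP H1, 4 were called higher and 2 lower than FLAG RIP, beside 18.3% and 21.2% of all transcripts. With hnRNP F, 1 was called higher and 6 lower, beside 16.6% and 17.1%. Bcl2l1, whose Bcl-x isoforms this family is known to balance, had 30.8, 6.37 and 14.3 CPM in hnRNP H1 RIP and 21.8, 22.4 and 12.8 CPM in hnRNP F RIP, against 33.9, 83.6 and 157 CPM in FLAG RIP. Src, with an exon that is spliced in neurons, had 93.3, 112 and 161 CPM in hnRNP H1 RIP and 66.3, 129.6 and 44.9 CPM in hnRNP F RIP, against 250.2, 55.9 and 382 CPM in FLAG RIP. In both the paralogs overlapped. Counts per transcript entry do not show splice choice directly: of the 4 Tpm1 entries, the one of 1244 bases had 46.7, 25.2 and 21.8 CPM in hnRNP H1 RIP and 24.5, 7.11 and 6.14 CPM in hnRNP F RIP, against 0.663, 0.295 and 0.120 CPM in FLAG RIP, while the one of 1664 bases was lower than FLAG RIP with both. Apc, Araf, Fgfr2, Mst1r, Nf1, Oprm1 and Tcf3 had 0 to 50.6 CPM across the 6 libraries.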

How the data were processed

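RNA immunoprecipitated from rat sciatic nerve axoplasm was sequenced in 18 libraries, 3 in each of 6 groups taken from the antibody named in the labels. CASAVA 1.8.2 and edgeR are listed, per the submitters' processing notes. No aligner, genome build or strand setting is named by the labels or the file headers. The deposited table holds counts per transcript entry, not normalized by the authors, and FPKM values. The deposited FPKM equal those recomputed from count minus 1 (largest relative deviation 9.2e-15), so 1 read had been added to each count, and transcript lengths were derived from them. Another 18 per-sample columns were not used. La/SSB RIP 1 has no entry under 10 reads, so the table holds only transcripts with at least 10 reads there, which limits what scarce transcripts can show.

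The counts as deposited were tested with edgeR 4.0.16 (R 4.3.3, limma 3.58.1): TMM scaling, filterByExpr by group (minimum count 10, minimum total 15), glmQLFit and glmQLFTest over the 15 RIP libraries with 10 residual degrees of freedom. Of 13416 entries, 13276 passed the filter. A transcript was called at a Benjamini-Hochberg adjusted p under 0.05 over all transcripts tested. Input comparisons, added after seeing the data, came from a fit of all 18 libraries (13300 transcripts). Standard errors are the log2 fold change over the square root of F, and 95% intervals use the t distribution. Printed CPM are TMM-scaled from count minus 1. Alternatives were DESeq2 1.42.0, other scalings, no filter, fewer groups in the fit, a replicate block and leaving out each library. The scripts were tested on simulated data.

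Genes were named by rule: the strongest calls between the paralogs (none), the 15 transcripts highest over FLAG RIP in both whose paralog interval lay inside 2-fold at 100 CPM or more, the 10 most abundant, and the family and known targets. Other genes named, as leaning or as examples of a list, were chosen after their values were seen. Some named items are not reported here. Members and lists were chosen with earlier results of these data known. The floor of 3 reads covers counting error only; the 95% intervals of fold changes also cover the spread between libraries.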

Additional observations from a re-analysis of the deposited data

How the results depend on the processing

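With 13276 transcripts in the test of hnRNP H1 RIP against hnRNP F RIP, 0 were called; 4 were called with total counts only (1 higher and 3 lower), 9 with the replicate block (1 higher and 8 lower), 1 with only the 2 groups in the fit, 9 with the 12 specific RIP libraries and 81 with DESeq2, and 0 with median-of-ratios size factors, no filter, 1 subtracted from every count or any 1 library left out. The transcripts inside 2-fold numbered 784, 1595 with the 12 specific RIP libraries, 14 with a 1.5-fold window, and 410 to 593 with 1 library left out. With only the 2 groups compared in the fit, calls numbered 2891 for hnRNP H1 over FLAG, 1640 for hnRNP F over FLAG, 6018 for hnRNP H1 over hnRNP K and 3586 for hnRNP H1 over La/SSB. With total counts only, calls over La/SSB numbered 3307 for hnRNP H1 (794 higher and 2513 lower) and 2527 for hnRNP F (674 and 1853); over FLAG, hnRNP H1 had 2015 higher and 3581 lower calls and hnRNP F 1738 and 2958, and over Input, hnRNP H1 had 1177 and 2615 and hnRNP F 967 and 1934. With the 12 specific libraries they numbered 3491 and 2939 over La/SSB. With 1 library left out, calls ran from 4184 to 5935 for hnRNP H1 over FLAG, 3437 to 5125 for hnRNP F over FLAG, 2745 to 3053 for hnRNP H1 over hnRNP K, 2676 to 3331 for hnRNP F over hnRNP K, 1419 to 1741 for hnRNP H1 over La/SSB, 1097 to 1453 for hnRNP F over La/SSB, 2348 to 2627 for hnRNP H1 over Input and 1675 to 2420 for hnRNP F over Input. The cause of these shifts was not tested. The named shared transcripts were chosen high over FLAG and the leaning ones without overlap, so the signs they keep support nothing. No named shared transcript's fold change over FLAG, no leaning transcript's between the paralogs, and neither the ribosomal protein nor the oxidative phosphorylation median, changed sign. Without hnRNP F RIP 1 the paralog medians of 6 of the 40 lists did, to -0.05 without it against 0.19 for regeneration-associated genes, and to 0.27, 0.25, 0.17, 0.55 and 0.16 against -0.04, -0.11, -0.02, -0.31 and -0.10 for integrins and laminins, lipid metabolism, the TGF-beta and BMP pathway, skeletal muscle markers and RNase MRP and RNase P RNAs. Of 280 repeats of the 20 leaning transcripts, 244 gave the same verdict and 36 passed the threshold.

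Same-numbered hnRNP H1 and hnRNP F libraries deviated together at r of 0.105, 0.070 and 0.072, against -0.077 to -0.004 for other pairs, so each library correlated best with its own number, but the labels say nothing of what a number shares; the replicate block is a hint from the data only. The 3 libraries per group, the spread within hnRNP F RIP and reads of 4610750 to 16754262 per library limit small differences at low levels.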

Other observations

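Zinc finger genes named Zfp, many of them transcription repressors, were set beside the lists above. Of 235 entries tested, 5 were higher and 6 lower in hnRNP H1 RIP than in hnRNP F RIP at an unadjusted p under 0.05, beside 3.96% and 6.12% of all transcripts, and the median log2 fold change was 0.13, beside -0.07. Without hnRNP F RIP 1, 15 were higher and 6 lower (median 0.22). Of all 13366 transcripts tested without that library, 747 were higher and 1005 lower. Integrins and laminins, the receptors and matrix proteins of cell adhesion, had 4 of 26 entries higher and 0 lower, with a median of -0.04, or 0.27 without hnRNP F RIP 1, where the counts were again 4 and 0. Motors of axonal transport had 2 of 39 higher and 3 lower, with a median of 0.00, and without that library 3 and 6, with a median of -0.05. Neuronal transcripts had 0 of 23 at that p in either direction, and 4 lower and 0 higher without that library. Their summed level was 1119 to 1201 CPM in hnRNP H1 RIP and 1014 to 1507 CPM in hnRNP F RIP.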
